A study of Mus musculus with 16 samples.

Results

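Glycerol channels and the enzymes that feed glycerol into or out of the glycerol phosphate pool were followed in mouse liver through 8 listed genes: the channels Aqp3, Aqp7, Aqp9, Aqp8 and Aqp11 and the enzymes Gk (formerly Gyk), Gpd1 and Gpd2. They were found by gene symbol in the platform's annotation, to be selected on the highest mean over the 16 arrays where a gene had several probe sets. Of the 8 genes, 7 had a probe set, out of 19938 named genes in the series, and each of the 7 had 1 probe set, so that this choice was never needed. No probe set used here carried the symbol of Gk, and glycerol kinase was not analysed here. The livers came from 16 male mice, 4 months old, all with the TgINS-MCK-Mut transgene, in which the muscle creatine kinase promoter drives Mut in muscle. The mice were heterozygous (Mut +/-) or mutant (Mut -/-) at Mut, now named Mmut, which encodes methylmalonyl-CoA mutase, and the mutants are a model of methylmalonic acidemia. Heterozygotes and mutants were sampled unfasted on normal diet or after a fast of 12 hours in heterozygotes and of 8 to 12 hours in mutants, which gave 4 groups of 4 mice with 1 array each. In the fasted comparison, genotype and the length of the fast cannot be told apart.

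As background, adipose tissue releases glycerol when it breaks down stored triglyceride, and the liver takes it up through membrane channels of the aquaglyceroporin family. Glycerol kinase then phosphorylates it, and glycerol phosphate is either oxidised to dihydroxyacetone phosphate on the way to glucose or esterified into new triglyceride. The cytosolic and the mitochondrial glycerol phosphate dehydrogenases, Gpd1 and Gpd2, also form a shuttle that carries reducing equivalents from the cytosol to the respiratory chain.

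All values are log2 array values, and differences are log2 differences ± standard error from a fit with limma, with p-values adjusted over all 19938 genes. A gene is said to rise or fall where the adjusted p was under 0.05. Mmut read 9.66 to 10.10 in the 8 heterozygous livers and 7.85 to 8.33 in the 8 mutant livers, so that every array matched its genotype label. The mean of 6 measured hepatocyte markers lay between 13.09 and 13.34 on 15 arrays and at 12.82 on mutant unfasted replicate 3, where Cps1, a urea cycle enzyme, at 12.09 and Tat, tyrosine aminotransferase, at 12.05 were the lowest of the 16. Arrays also stood apart by transcripts of other tissues. Mutant unfasted replicate 1 held transcripts of pancreatic acinar cells, with a mean of 11.08 over 8 measured markers against 6.84 to 7.09 on the other arrays. Mutant fasted replicate 1 held transcripts of adipose tissue, with Ucp1, the brown fat uncoupling protein, at 7.57 against 5.96 to 6.22 elsewhere and Adipoq, adiponectin, at 6.43 against 5.60 to 5.81. In whole liver, fewer cells of a type and less RNA per cell cannot be told apart.

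Aqp7, the glycerol channel best known from fat cells, was the member with the largest difference between genotypes. In unfasted heterozygotes it read 6.70, 6.61, 6.38 and 6.46 in replicates 1 to 4, and in fasted heterozygotes 6.77, 6.59, 6.95 and 7.09. In unfasted mutants it read 8.20, 8.37, 9.86 and 7.80, and in fasted mutants 9.89, 9.02, 9.79 and 9.34. Every mutant array lay above every heterozygous array. Unfasted mutant replicate 3, the array with low Cps1 and Tat, reached the level of the fasted mutants. The group means were, from lowest to highest, 6.54 ± 0.14 (SD, n = 4) for heterozygotes unfasted and 6.85 ± 0.21 fasted, then 8.56 ± 0.90 for mutants unfasted and 9.51 ± 0.40 fasted, and the first pair of this order overlapped, as did the last. Aqp7 rose in unfasted mutants by 2.02 ± 0.32, which is 4.06-fold (adjusted p = 0.0016), and in fasted mutants by 2.66 ± 0.32, which is 6.32-fold (adjusted p = 0.00015). These comparisons share no array. The heterozygous values lie below the median gene mean of 7.67 and the table has no detection calls, so whether the probe set is above background in heterozygotes is not known, and the folds are those of the array values. Without unfasted mutant replicate 3 the unfasted difference was 1.59 ± 0.19 (adjusted p = 0.00038).

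The effect of the fast on Aqp7 was smaller and less certain. In heterozygotes the difference was 0.31 ± 0.32 with a 95% interval from -0.36 to 0.99 (adjusted p = 0.80). The fit uses 1 spread for all groups, so this interval mainly reflects the mutants. Their SDs were 0.90 and 0.40, against 0.14 and 0.21 in heterozygotes. In mutants it was 0.95 ± 0.32 with an interval from 0.28 to 1.63 (adjusted p = 0.10). Without mutant unfasted replicate 3, the high one of its group, the mutant difference was larger, at 1.39 ± 0.19, and passed (adjusted p = 0.0029). Leaving out single arrays gave differences from 0.70 to 1.39. The interaction of genotype and fasting was 0.64 ± 0.45 (adjusted p = 0.57).

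**Figure D1:**
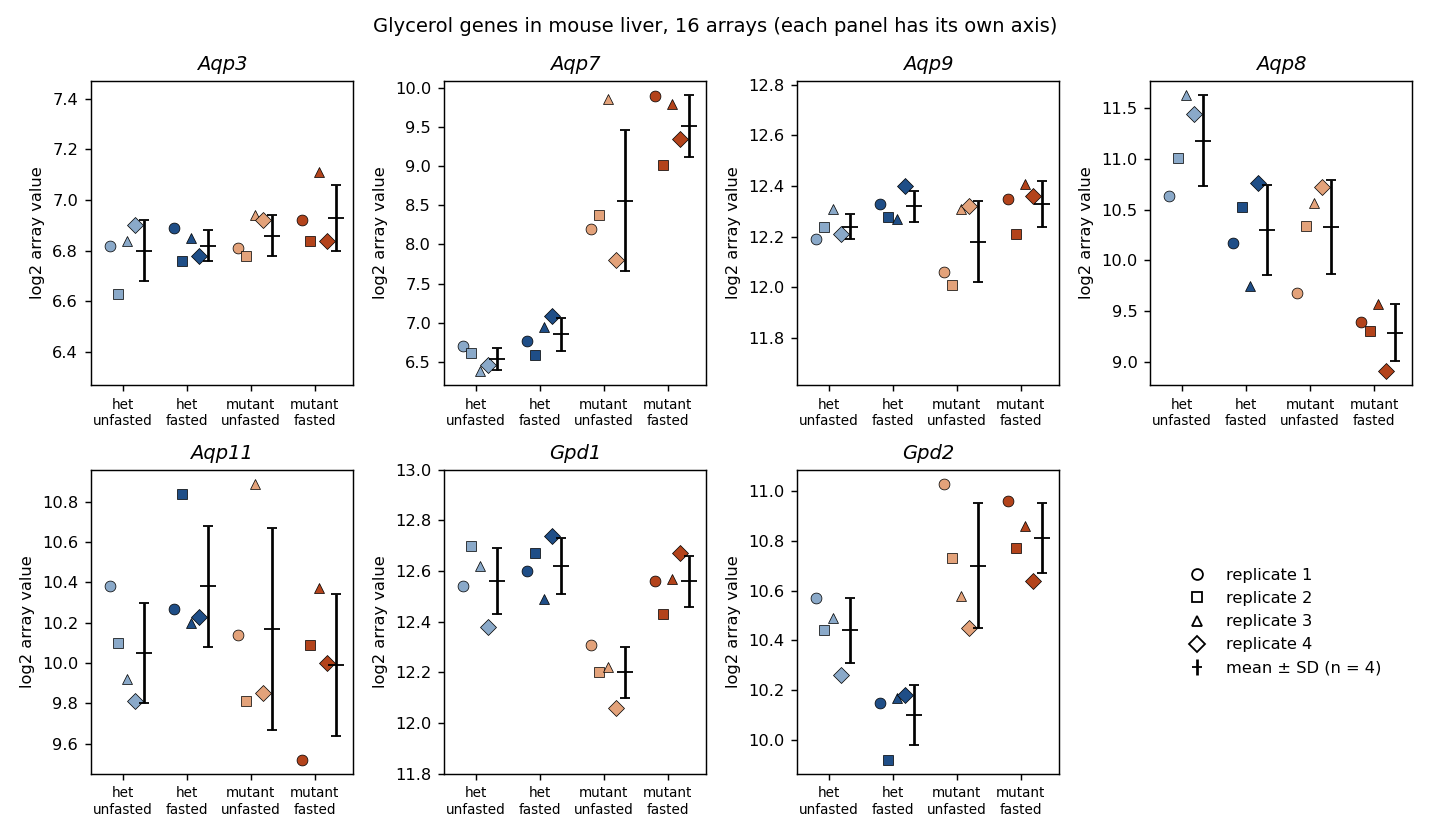
Log2 array values of the 7 measured genes (vertical axes, a separate range per panel) in the 4 groups (horizontal axes), with a symbol for each replicate and the mean ± SD beside the points. Aqp7 lies between 6.38 and 7.09 in heterozygotes and between 7.80 and 9.89 in mutants, Aqp8 is lowest in fasted mutants, and Gpd1 is lowest in unfasted mutants.

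Markers of other cell types were read beside Aqp7, since the gene is known from adipocytes and from capillary endothelium. Of 9 measured adipocyte markers, 1 rose in fasted mutants (Fabp4 by 1.09 ± 0.30, adjusted p = 0.028) and 1 fell (Car3, at -1.09 ± 0.31, adjusted p = 0.029). The Fabp4 call did not hold on leaving out replicate 1, 2 or 3 of the fasted heterozygotes (adjusted p up to 0.068) and that of Car3 on leaving out replicate 2 of the fasted mutants or 1, 2 or 4 of the fasted heterozygotes (adjusted p up to 0.070). The mean of the list lay between 7.48 and 7.88 in unfasted and 7.61 and 8.04 in fasted heterozygotes, and between 7.54 and 7.78 in unfasted and 7.71 and 8.30 in fasted mutants. Car3 lay near the hepatocyte markers in heterozygotes, at 13.41 to 13.45 unfasted and 12.99 to 13.30 fasted. It was lowest, at 10.79, on fasted mutant replicate 1, the array with adipose transcripts, so it does not mark adipose tissue here. The mean of the list includes Car3. Cidea was highest on fasted heterozygous replicate 4, at 7.96, against 6.54 on fasted mutant replicate 1. Lep lay between 5.98 and 6.20 on all arrays. The markers differed among themselves on the fasted mutant arrays other than replicate 1. Adipoq read 5.76, 5.75 and 5.68 there against 5.60 to 5.76 in fasted heterozygotes. Fabp4, a fatty acid binding protein that macrophages and endothelium also make, read 8.60, 8.75 and 8.12 against 7.70 to 8.03, above every fasted heterozygote. Cidec, a lipid droplet protein that fatty hepatocytes also make, read 10.86, 11.05 and 10.60 against 9.15 to 10.05, likewise above all of them, with a fasted genotype difference of 1.17 ± 0.46 that did not pass (adjusted p = 0.10). Without fasted mutant replicate 1 the fasted difference of Aqp7 was 2.53 ± 0.34 (adjusted p = 0.00073), and without unfasted mutant replicate 1 the unfasted one was 2.14 ± 0.34 (adjusted p = 0.0031).

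Of 10 endothelial markers 6 rose in unfasted mutants, where 7.94% of all genes were called in either direction, and 7 in fasted mutants, where 13.6% were. Without 1 array the calls of Emcn, Lyve1 and Tek could be lost in unfasted mutants, and those of Clec4g and Eng in fasted mutants. Kdr, a receptor for vascular endothelial growth factor, rose by 0.43 ± 0.09 unfasted and 0.58 ± 0.09 fasted. The list's mean lay between 9.09 and 9.42 in unfasted and 9.23 and 9.40 in fasted heterozygotes, and between 9.57 and 9.84 in unfasted and 9.67 and 9.89 in fasted mutants. Of 10 macrophage markers limma called 0 in unfasted mutants (median difference 0.30, 4 at an unadjusted p under 0.05) and 8 rose in fasted mutants, of which the Adgre1 call was lost on leaving out any 1 of 4 arrays and the C1qb call any 1 of 5. Their mean lay between 8.70 and 9.26 in unfasted and 8.72 and 9.21 in fasted heterozygotes, and between 8.97 and 9.65 in unfasted and 9.43 and 9.81 in fasted mutants. The part of these cells in the Aqp7 result was not tested.

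Aqp7 lies next to another member, Aqp3, on chromosome 4 in GRCm38.p6. The measured genes around it are, in chromosome order, Chmp5, Nfx1, Aqp7, Aqp3 and Nol6. Aqp3, an aquaglyceroporin of kidney and skin epithelia, read between 6.63 and 7.11 on the 16 arrays, also below the median gene mean, so that a small difference there says little about the gene. Its groups overlapped in every comparison. Its difference was 0.07 ± 0.07 in unfasted mutants (adjusted p = 0.63) and 0.11 ± 0.07 in fasted mutants (95% interval -0.03 to 0.25, adjusted p = 0.28). The genotype differences of Chmp5, Nfx1 and Nol6 ran from -0.16 to 0.28, with adjusted p from 0.058 upward. Nol6, a nucleolar protein gene, rose with the fast in mutants by 0.26 ± 0.06 (adjusted p = 0.030).

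**Figure D2:**
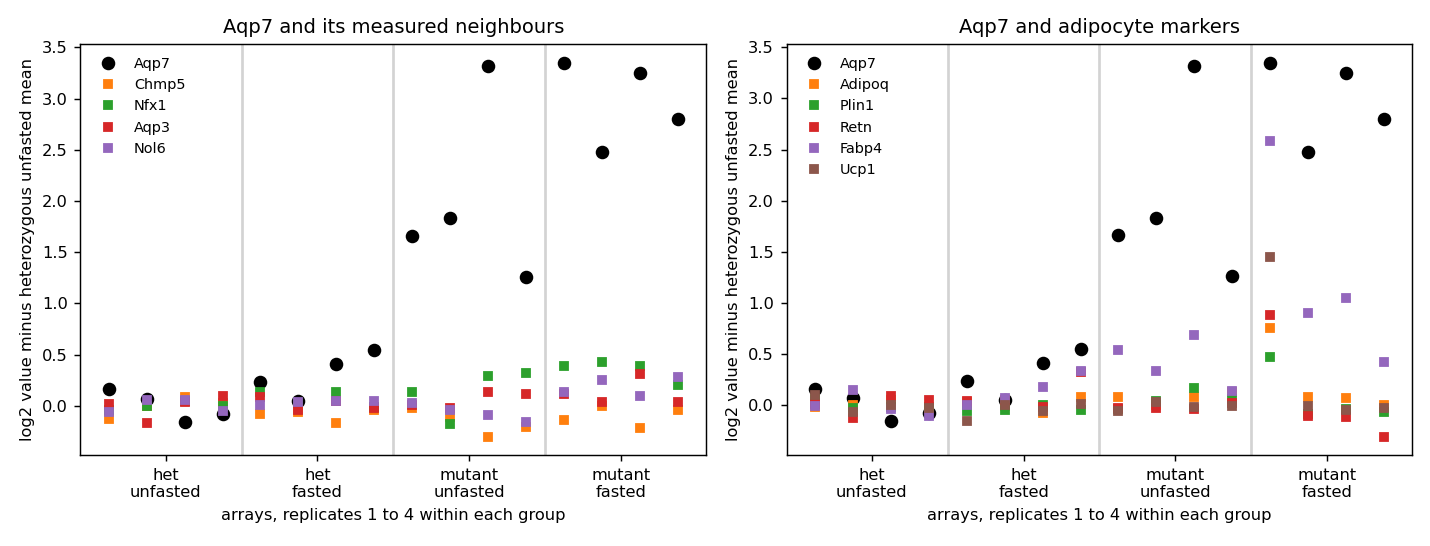
Log2 value on each of the 16 arrays minus the gene's mean in unfasted heterozygotes (vertical axes), with arrays grouped along the horizontal axes. The left panel sets Aqp7 beside the 4 measured genes around it, which lie near zero in every group. The right panel sets it beside 5 of the 9 measured adipocyte markers, which are highest in mutant fasted replicate 1. Cidec, Cidea, Lep and Car3 are not shown and were not highest on that array.

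The promoter windows of these neighbouring channels, and of Aqp8, which changed the other way, are shown because their genes behaved differently. They are from RefSeq annotation of GRCm38.p6 and run from 250 bases before to 50 bases after a transcript start. Windows were found for 7 of the 8 genes, all but Gpd1, with 10 windows in all. The capitals mark exact matches, on either strand, to the nuclear receptor core AGGTCA (reverse TGACCT), the forkhead core TGTTTAC, the E-box CACGTG or the TATA box TATAAA.
Aqp7, second of 2 listed starts, chr4:41047913-41048212, minus strand: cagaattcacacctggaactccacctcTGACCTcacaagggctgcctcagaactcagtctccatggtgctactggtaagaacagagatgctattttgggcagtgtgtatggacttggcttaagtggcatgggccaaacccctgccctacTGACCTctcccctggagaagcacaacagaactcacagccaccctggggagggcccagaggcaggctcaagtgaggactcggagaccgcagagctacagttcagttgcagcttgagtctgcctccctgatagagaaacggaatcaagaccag
Aqp3, chr4:41098134-41098433, minus strand: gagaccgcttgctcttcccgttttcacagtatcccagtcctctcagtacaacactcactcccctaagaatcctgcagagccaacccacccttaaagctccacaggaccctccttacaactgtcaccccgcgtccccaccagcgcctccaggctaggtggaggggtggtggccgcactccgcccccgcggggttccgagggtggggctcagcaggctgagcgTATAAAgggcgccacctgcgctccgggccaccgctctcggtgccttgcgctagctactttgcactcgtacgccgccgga
Aqp8, chr7:123462044-123462343, plus strand: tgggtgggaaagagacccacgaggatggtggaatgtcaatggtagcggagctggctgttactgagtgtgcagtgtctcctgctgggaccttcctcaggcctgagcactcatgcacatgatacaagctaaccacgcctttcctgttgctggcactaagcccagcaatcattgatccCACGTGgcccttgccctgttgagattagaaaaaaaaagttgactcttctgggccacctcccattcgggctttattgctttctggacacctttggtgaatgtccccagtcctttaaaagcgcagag

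The Aqp7 window held the reverse of the nuclear receptor core at 2 places, with leftmost bases at positions -223 and -101 from the start. The other Aqp7 window shares 126 bases with this one and held the core at position -49 from its own start, in the shared bases, and the Aqp11 window held it at position -230. Of 32851 windows of this length, 16.3% held the core. An exact direct repeat of it with 1 base between is the textbook site of the PPAR receptors. It was found in 0.0396% of all windows and in no window of the listed genes. Inexact repeats were not searched for, so these counts say nothing of them. Aqp3 held a TATA box at position -29 (13.6% of windows hold one). An E-box stood at position -75 in Aqp8 and at position -58 in the window of Gk, not printed here (7.15% of windows). The forkhead core stood in 3.65% of windows and in no window of the listed genes, among which Gpd1 had none to search. These matches describe letters only.

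Aqp9, the main glycerol channel of hepatocytes, did not pass the test in any comparison. Its 16 values lay between 12.01 and 12.41, with unfasted mutant replicates 1 and 2, at 12.06 and 12.01, the lowest. The group means were 12.24 ± 0.05 and 12.32 ± 0.06 in unfasted and fasted heterozygotes and 12.18 ± 0.16 and 12.33 ± 0.09 in unfasted and fasted mutants, and the groups overlapped in every comparison. The genotype difference was -0.06 ± 0.07 unfasted (95% interval -0.21 to 0.09, adjusted p = 0.70) and 0.01 ± 0.07 fasted (interval -0.14 to 0.16, adjusted p = 0.92), a sign that turned when the arrays were centred on their medians. With the fast it differed by 0.15 ± 0.07 in mutants (adjusted p = 0.21).

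Aqp8, a channel of the hepatocyte known to pass water and hydrogen peroxide and not counted among the glycerol channels, was lower in mutants and lower after the fast. It read 10.63, 11.01, 11.63 and 11.44 in unfasted heterozygotes and 10.17, 10.53, 9.75 and 10.76 in fasted ones. It read 9.68, 10.34, 10.57 and 10.72 in unfasted mutants and 9.39, 9.31, 9.57 and 8.91 in fasted mutants. The fasted mutants lay below the other 12 arrays, the unfasted heterozygotes had the highest mean, and the middle groups, with means of 10.30 and 10.33, overlapped. Aqp8 fell in fasted mutants against fasted heterozygotes, at -1.01 ± 0.26, a 2.01-fold difference (adjusted p = 0.018), and with the fast in mutants, at -1.03 ± 0.26 (adjusted p = 0.039). These comparisons share the fasted mutant arrays. The unfasted genotype difference was -0.85 ± 0.26 (95% interval -1.40 to -0.30, adjusted p = 0.055) and the fasting difference in heterozygotes -0.87 ± 0.26 (interval -1.42 to -0.33, adjusted p = 0.12). The interaction was -0.16 ± 0.37 (adjusted p = 0.87).

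The calls of Aqp8 lay close to the threshold. The genotype call in the fasted state was lost without fasted heterozygous replicate 2 (adjusted p = 0.053) or 4 (0.062). The fasting call in mutants was lost without unfasted mutant replicate 2, 3 or 4, any 1 fasted mutant, or fasted heterozygous replicate 1 or 2, with adjusted p from 0.051 to 0.11, while the difference stayed between -1.25 and -0.90. The unfasted genotype difference passed without unfasted mutant replicate 4 (adjusted p = 0.038), unfasted heterozygous replicate 1 (0.025) or fasted heterozygous replicate 3 (0.045), and was -0.63 ± 0.25 (adjusted p = 0.13) without unfasted mutant replicate 1, the array with acinar transcripts.

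Aqp11, an aquaporin of the endoplasmic reticulum, varied between mice more than between groups. It ranged from 9.81 to 10.38 in unfasted and 10.20 to 10.84 in fasted heterozygotes, and from 9.81 to 10.89 in unfasted and 9.52 to 10.37 in fasted mutants. All groups overlapped. Its differences ran from -0.39 ± 0.23 in fasted mutants (95% interval -0.88 to 0.10, adjusted p = 0.27) to 0.33 ± 0.23 with the fast in heterozygotes (interval -0.16 to 0.82, adjusted p = 0.65). The difference between unfasted genotypes was 0.12 ± 0.23 and turned to -0.12 ± 0.20 without unfasted mutant replicate 3.

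Gpd1, the cytosolic dehydrogenase that interconverts dihydroxyacetone phosphate and glycerol phosphate, was lowest in unfasted mutants. It read 12.54, 12.70, 12.62 and 12.38 in unfasted heterozygotes and 12.31, 12.20, 12.22 and 12.06 in unfasted mutants. It read 12.60, 12.67, 12.49 and 12.74 in fasted heterozygotes and 12.56, 12.43, 12.57 and 12.67 in fasted mutants. The unfasted mutants lay below all 12 other arrays, which overlapped with each other. Gpd1 fell in unfasted mutants, at -0.36 ± 0.08, a 1.28-fold difference (adjusted p = 0.010), and rose with the fast in mutants by 0.36 ± 0.08 (adjusted p = 0.021). Both comparisons use the 4 unfasted mutant arrays. In fasted mutants against fasted heterozygotes the difference was -0.07 ± 0.08 (95% interval -0.23 to 0.10, adjusted p = 0.58), and with the fast in heterozygotes 0.06 ± 0.08 (interval -0.10 to 0.23, adjusted p = 0.85). The interaction of genotype and fasting was 0.29 ± 0.11 and did not pass (interval 0.06 to 0.53, adjusted p = 0.40), so the fasting response of Gpd1 was not shown to differ between genotypes. Without unfasted mutant replicate 1 the unfasted difference was -0.40 ± 0.08 (adjusted p = 0.010). The fasting call did not hold on leaving out replicate 2 (adjusted p = 0.051) or 4 (0.059) of the unfasted mutants or replicate 4 (0.055) of the fasted ones.

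Gpd2, the mitochondrial dehydrogenase that completes the shuttle, was higher in mutants after the fast. It read 10.57, 10.44, 10.49 and 10.26 in unfasted and 10.15, 9.92, 10.17 and 10.18 in fasted heterozygotes. It read 11.03, 10.73, 10.58 and 10.45 in unfasted and 10.96, 10.77, 10.86 and 10.64 in fasted mutants. Both fasted groups lay apart from each other, and the fasted heterozygotes also lay below the unfasted ones. Gpd2 rose in fasted mutants by 0.70 ± 0.11, which is 1.63-fold (adjusted p = 0.0013), and by 0.65 ± 0.12 (adjusted p = 0.0051) without the array with adipose transcripts. The unfasted genotype difference was 0.26 ± 0.11 (95% interval 0.02 to 0.49, adjusted p = 0.19), and 0.15 ± 0.10 (adjusted p = 0.39) without the array with acinar transcripts, which held the highest value. With the fast Gpd2 differed by -0.34 ± 0.11 in heterozygotes (interval -0.57 to -0.10, adjusted p = 0.17) and by 0.11 ± 0.11 in mutants (interval -0.13 to 0.35, adjusted p = 0.58). The interaction was 0.45 ± 0.16 (interval 0.11 to 0.78) and did not pass (adjusted p = 0.39).

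**Figure D3:**
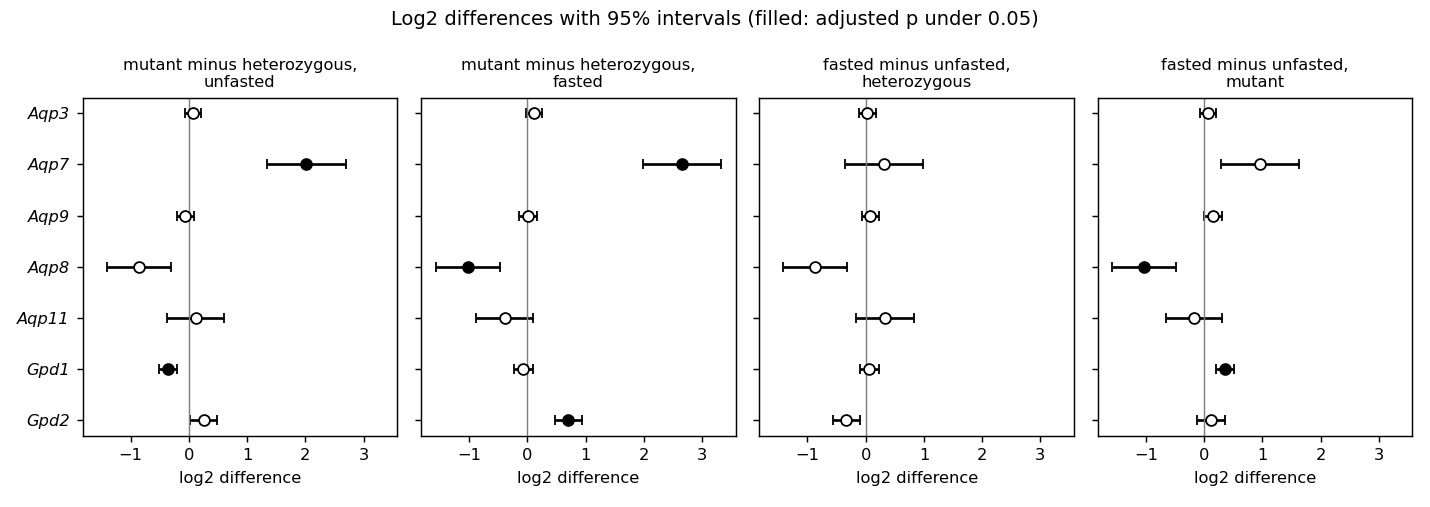
Log2 differences (horizontal axes) of the 7 measured genes (vertical axis) in 4 comparisons, with 95% intervals, filled where the adjusted p was under 0.05. Aqp7 is filled in both genotype comparisons, Aqp8 and Gpd2 in the fasted genotype comparison, Gpd1 in the unfasted one, and Aqp8 and Gpd1 for the fast in mutants.

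Counted over the 7 genes, 1 rose (Aqp7) and 1 fell (Gpd1) in unfasted mutants, where 7.94% of all genes were called, and in the fasted state 2 rose (Aqp7, Gpd2) and 1 fell (Aqp8), where 13.6% were called. With the fast 1 rose (Gpd1) and 1 fell (Aqp8) in mutants, beside 3.35% of all genes. In heterozygotes limma called 0 of the 7 after adjustment, beside 1.57% of all genes, with 2 (Aqp8 and Gpd2) at an unadjusted p under 0.05. It called 0 of the 7 for the interaction, beside 0.01% of all genes, with 2 (Gpd1 and Gpd2) at an unadjusted p under 0.05. The groups did not overlap for 2 genes in the unfasted genotype comparison (12% of all genes), 3 in the fasted one (23.7%), 1 for the fast in heterozygotes (10.5%) and 2 in mutants (10%). The median difference of the 7 genes lay between 0.01 and 0.11 in the 5 contrasts, against -0.02 to 0.01 for all genes. The genes thus moved in both directions, and these shares only describe the list.

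Genes with the most similar profile over the 16 arrays were named for each gene that was called. The correlations are descriptions, since arrays of a group share their genotype and feeding. Aqp7 ran most like Arhgap15 (Pearson r = 0.96), Ptbp3 (0.96) and Stk10 (0.94), a GTPase activating protein, an RNA-binding protein and a kinase of lymphoid cells, though their differences were far smaller: Ptbp3 rose by 0.21 ± 0.06 in unfasted and 0.31 ± 0.06 in fasted mutants. Aqp8 ran most like Tcea3 (0.92), Ptprf (0.92) and Kcp (0.92), and Tcea3, a transcription elongation factor, fell with the fast in mutants at -0.94 ± 0.13 (adjusted p = 0.0027). Gpd1 ran most like Tmem234 (0.95), Birc6 (0.91) and Zfp523 (0.91). Gpd2 ran most like Nup93 (0.91), Cyrib (0.89) and Pparg (0.88), the last a nuclear receptor that drives fat storage.

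For the lists of related genes that follow, the shares of all genes called are the background of each count. For genotype they were 7.94% in unfasted and 13.6% in fasted mutants. For the fast they were 3.35% in mutants and 1.57% in heterozygotes. Counts of 1 to 3 genes near these shares describe single genes. In glycerolipid synthesis, the esterification of glycerol phosphate, 2 of 16 genes rose and 1 fell in unfasted mutants, and 2 rose and 1 fell in fasted mutants. Gpat3, an acyltransferase that acts on glycerol phosphate, read 8.00 to 9.12 in unfasted and 9.46 to 9.49 in fasted heterozygotes against 9.84 to 10.88 and 10.42 to 11.03 in mutants. It rose by 1.69 ± 0.24 unfasted (adjusted p = 0.00085) and by 1.25 ± 0.24 fasted (adjusted p = 0.0039). Agpat2, the next acyltransferase in the pathway, fell in both states, at -0.39 ± 0.09 and -0.42 ± 0.09. With the fast 3 genes rose in mutants, Dgat1 by 0.50 ± 0.09, Gpat4 by 0.49 ± 0.08 and Agpat3 by 0.32 ± 0.06, and 2 in heterozygotes, Agpat3 by 0.35 ± 0.06 and Lpin2, a phosphatidate phosphatase, by 0.58 ± 0.13. Lpin2 no longer passed when any of 7 arrays was left out (highest adjusted p 0.13). The median of the list lay between -0.03 and 0.22 in the 5 contrasts.

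Among 11 measured genes of triglyceride breakdown, which frees glycerol, Pnpla2, the adipose triglyceride lipase, rose in unfasted mutants by 0.60 ± 0.16 (adjusted p = 0.033), in fasted mutants by 0.71 ± 0.16 (adjusted p = 0.010), and with the fast in mutants by 0.75 ± 0.16 (adjusted p = 0.022). The first of these calls depended on replicates 1 and 3 of the unfasted mutants and 3 and 4 of the unfasted heterozygotes (highest adjusted p on leaving 1 out 0.12), and the last on replicates 2 and 4 of the unfasted mutants and 2 of the fasted mutants (0.062). Ces3a, a carboxylesterase, fell in fasted mutants at -0.82 ± 0.20, a call lost without fasted mutant replicate 2 (adjusted p = 0.054). The other genes of the list did not pass.

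On the way from triose phosphate to glucose, 1 of 9 measured genes rose and 2 fell in unfasted mutants, and 1 rose and 1 fell in fasted mutants. Of the unfasted calls, Aldoc, an aldolase, at 0.71 ± 0.20 rested on each of 7 arrays, and Slc37a4 at -0.45 ± 0.13 on each of 14, meaning that leaving out any 1 of them lost the call. G6pc, the catalytic subunit of glucose 6-phosphatase, read 12.81 to 13.02 in unfasted heterozygotes and 11.68 to 12.69 in unfasted mutants, a fall at -0.74 ± 0.17 (adjusted p = 0.017), and 12.74 to 13.24 in fasted mutants, a rise with the fast of 0.73 ± 0.17 (adjusted p = 0.031). These comparisons share the unfasted mutant arrays, as those of Gpd1 do. The genotype call depended on replicate 2 of the unfasted mutants and 3 of the unfasted heterozygotes (highest adjusted p on leaving 1 out 0.055), and the fasting call on replicate 2 of the unfasted mutants and 1, 2 and 3 of the fasted mutants (0.088). Slc37a4, its glucose 6-phosphate carrier, fell in fasted mutants at -0.56 ± 0.13 (adjusted p = 0.012), and Aldoa, an aldolase, rose by 0.71 ± 0.14. Pck1, which supplies carbon from sources other than glycerol, rose with the fast by 0.60 ± 0.10 in heterozygotes and 0.55 ± 0.10 in mutants.

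Among 10 other enzymes of glycerol, glycerate and dihydroxyacetone, 1 fell in unfasted mutants, and 1 rose and 2 fell in fasted mutants. Glyctk, glycerate kinase, fell in mutants in both states, at -0.48 ± 0.08 unfasted (adjusted p = 0.0029) and -0.59 ± 0.08 fasted (adjusted p = 0.00051), and all mutant arrays, at 10.37 to 10.83, lay below all heterozygous ones, at 11.11 to 11.25. Tkfc, which phosphorylates dihydroxyacetone, fell in fasted mutants at -0.53 ± 0.15 (adjusted p = 0.027). That call depended on replicates 1, 2 and 3 of the fasted mutants and 1, 2 and 4 of the fasted heterozygotes (highest adjusted p on leaving 1 out 0.085). In the malate-aspartate shuttle, which does the same work as the Gpd1 and Gpd2 pair, 1 of 8 genes rose in unfasted mutants and 2 in fasted mutants, of which the call of Slc25a11, a mitochondrial carrier, rested on each of 5 arrays. Mdh2, mitochondrial malate dehydrogenase, rose by 0.39 ± 0.09 unfasted, a call that depended on replicates 3 and 4 of the unfasted heterozygotes (highest adjusted p 0.063), and by 0.50 ± 0.09 fasted (adjusted p = 0.0027). Got1, cytosolic aspartate aminotransferase, rose with the fast in mutants by 1.29 ± 0.29, a call that depended on replicates 2 and 3 of the unfasted mutants and 1, 2 and 3 of the fasted mutants (highest adjusted p 0.070).

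Of the 7 other aquaporins, Aqp1, a water channel of endothelium and bile ducts, rose in mutants by 0.58 ± 0.11 unfasted (adjusted p = 0.0051) and 0.62 ± 0.11 fasted (adjusted p = 0.0025), beside the endothelial markers given above. Of 6 measured bile duct cell markers 0 rose in either genotype comparison, and Sox9 fell in fasted mutants, from a mean of 8.64 to 8.03. The part of either cell type in the Aqp1 result was not tested. Aqp4 rose with the fast in mutants, from a mean of 7.11 to 7.96, a call that rested on each of 6 arrays. Among 14 receptors and regulators, 1 rose and 1 fell in unfasted mutants, and 3 rose and 1 fell in fasted mutants. The gene that fell in both states was Foxa2, a forkhead factor, at -0.35 ± 0.10 unfasted and -0.31 ± 0.10 fasted, with calls that rested on each of 6 and each of 9 arrays. Pparg, which is known to drive Aqp7 in fat cells, rose in fasted mutants by 0.95 ± 0.15 (adjusted p = 0.0012). It read 9.61 to 10.55 in unfasted and 9.43 to 9.85 in fasted heterozygotes, and 10.34 to 10.59 and 10.50 to 10.61 in mutants. Ppargc1a, a coactivator of gluconeogenic genes, rose with the fast in mutants by 1.33 ± 0.26 (adjusted p = 0.015). Ppargc1a also rose in fasted mutants, from a mean of 9.25 in fasted heterozygotes to 10.24. That genotype call depended on replicates 1 and 2 of the fasted mutants and 1 and 4 of the fasted heterozygotes (highest adjusted p 0.073). Fasted mutant replicate 1, the array with adipose transcripts, held the highest value, 10.99, against 9.58 to 10.24 in the other fasted mutants. The part of adipose transcripts in these differences was not tested. Lepr, the leptin receptor, rose in fasted mutants by 3.82 ± 0.59 (adjusted p = 0.0010), from a mean of 7.24 to 11.06, the largest difference of its list, and that call held without any 1 of 16 arrays. It rose in unfasted mutants by 2.58 ± 0.59 (adjusted p = 0.014), a call that depended on replicates 3 and 4 of the unfasted heterozygotes (highest adjusted p on leaving 1 out 0.054). Its value in unfasted mutant replicate 4 was 6.99 against 9.87 to 10.61 in the other unfasted mutants. Aqp7 was also lowest in that mouse, at 7.80. Their orders differed otherwise, with Lepr highest in replicate 1, at 10.61, and Aqp7 in replicate 3, at 9.86.

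**Figure D4:**
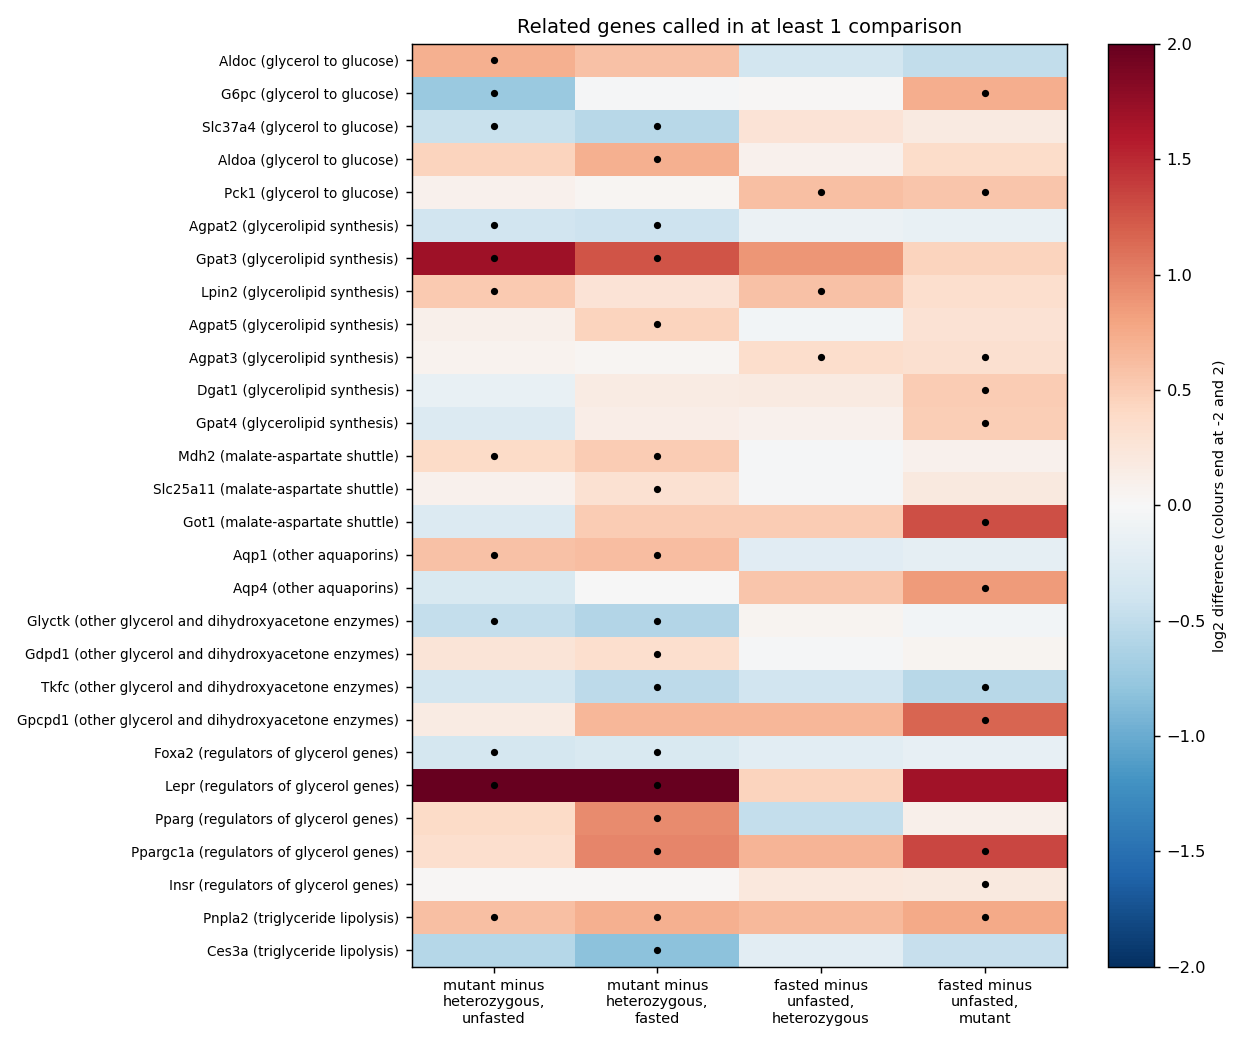
Log2 differences of the related genes called in at least 1 of 4 comparisons, by colour, with a dot where the adjusted p was under 0.05. Gpat3 and Lepr show the strongest red in the genotype comparisons, Glyctk and Agpat2 are blue in both, and Pck1 has a dot for the fast in both genotypes.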

How the data were processed

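Total RNA of 16 livers was hybridised to Affymetrix Mouse Gene 1.0 ST arrays, 300 ng per array per the labels' protocols. The authors deposited log2 values for 35556 probe sets, made with Affymetrix Expression Console and RMA per the submitters' processing notes. RMA as a method corrects background, quantile-normalizes and summarises probes, and it compresses differences of dim probe sets. The log2 scale was read from the range of 3.80 to 14.33. Versions and filters are not given in the sources used here. Precision is limited by the number of arrays.

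Probe sets with 1 gene symbol (21789) were kept, with symbols updated through the GRCm38.p6 gene table (21698 matched), and the brightest per gene gave 19938 genes. Group means over the 16 arrays were fitted with limma 3.58.1 in R 4.3.3 (eBayes with an intensity trend, two-sided, Benjamini-Hochberg over all genes). The design text describes separate mice per group, no batch is given, and no arrays were identical.

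The genes and lists were chosen with earlier results of these data known, the difference of Aqp7 among them, so they give no independent support. Named were the listed genes and the 2 measured genes on each side of Aqp7. So were the 3 genes most correlated with each called gene, leaving out predicted, olfactory and small RNA genes. In each list and comparison, up to 4 called genes with the largest difference could be named. Not described were the calls of Lpin2 in unfasted mutants, and of Agpat5 and Gdpd1 in fasted mutants. Those of Gpcpd1, Tkfc and Insr with the fast in mutants were not described either. Each of these calls was lost on leaving out single arrays. Marker genes were named where they check the tissue, mark an array that stood apart or moved with a listed gene. Of the listed related genes and markers, those without a named probe set were left out. Alternatives were a replicate block, only the arrays compared, array weights, median centring, a second quantile normalization, no trend, a robust trend, only genes above median brightness, the mean over probe sets, an adjusted p under 0.01 and leaving out each array.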

Additional observations from a re-analysis of the deposited data

Results flagged for a closer look

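In fasted heterozygotes, replicate 2 stood far from the other 3 arrays for a pair of the genes. Its Aqp11 value was 10.84 against 10.20 to 10.27, and its Gpd2 value was 9.92 against 10.15 to 10.18. With 28 groups of 4 tested, chance flags about 1 in 20. Without this array the fasted genotype difference of Gpd2 was 0.64 ± 0.12 (adjusted p = 0.0060) and that of Aqp11 was -0.24 ± 0.23 (adjusted p = 0.54).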

How the results depend on the processing

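The genotype calls of Aqp7, of Gpd1 in unfasted mutants and of Gpd2 in fasted mutants held without any 1 of the 16 arrays, and all but that of Gpd1 (adjusted p = 0.010) held at an adjusted p under 0.01. In the unfasted genotype comparison 2 of the 7 genes were called and 1 at the threshold of 0.01. The count there was 3, with Aqp8 added, in 3 other settings. These were array weights (adjusted p = 0.042), median centring (0.038) and only genes above median brightness (0.039). With the fast in heterozygotes array weights called 2, Aqp8 at -0.83 (adjusted p = 0.039) and Gpd2 at -0.35 (adjusted p = 0.036). With the fast in mutants the count of 2 became 0 in a fit of only the arrays compared, 1 with a robust trend, 0 at the threshold of 0.01, and 0 to 2 when an array was left out. It was 0 without mutant unfasted replicate 2 or 4 or mutant fasted replicate 4. Leaving out an array gave 2 to 3 calls in each genotype comparison. Array weights gave a fasting difference of Aqp7 in mutants of 1.04 (adjusted p = 0.049). Differences that were not called changed sign for Aqp11 unfasted (-0.12 without mutant unfasted replicate 3, and up to 0.24 without other arrays), for Aqp9 fasted (-0.01 with median centring, -0.01 to 0 without mutant fasted replicate 3 or heterozygous fasted replicate 2 or 3), and for Aqp3 with the fast in heterozygotes (-0.01 with array weights, -0.03 without heterozygous unfasted replicate 2). They also did for Aqp11 with the fast in mutants (0.02 with array weights, 0.06 without mutant unfasted replicate 3, and down to -0.30 without others) and for the interactions of Aqp3 (-0.02 without mutant fasted replicate 3, up to 0.10) and Aqp8 (0.02 without heterozygous unfasted replicate 1, down to -0.38). The cause was not tested. With replicate number as a block the counts were 3, 3, 0, 2 and 0 over the 5 contrasts, and the unfasted Aqp8 difference of -0.85 passed (adjusted p = 0.050). The numbers were not taken as pairing, since the design text describes separate mice per group. Same-numbered arrays correlated at -0.12 to 0.25 in their deviations from group means. Their mean correlation was 0.07, against -0.02 for differently numbered pairs, and 8 of 16 arrays correlated best with their own number. Whether same-numbered arrays share a source of variation was not tested. The 4 arrays per group limit all intervals.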
